A study of Mus musculus with 14 samples.

Results

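The genes described here are 39 imprinted genes, picked by symbol, of the 24340 genes listed for male germ cells from testes of C57BL/6 mice. They form 10 clusters with 32 members and 7 single or small loci; 24 are known to be expressed from the paternal allele and 14 from the maternal allele, and Gnas gives transcripts of both kinds. Levels are RPKM, read counts scaled by transcript length and library size, which do not separate the parental alleles. Each gene is therefore read by the allele known from other work. Which allele these germ cells used was not measured, and it may differ from the known allele. The 14 libraries form 7 groups of 2. At postnatal day 7 (P7), DKO germ cells were Vasa-Cre; Jmjd1a-/-; Jmjd1b-/- and Ctrl germ cells were Vasa-Cre; Jmjd1a-/+; Jmjd1b-/+. At day 3 (P3) there were DKO and Ctrl of the same genotypes, Jmjd1aKO (Vasa-Cre; Jmjd1a-/-; Jmjd1b-/+), Jmjd1bKO (Vasa-Cre; Jmjd1a-/+; Jmjd1b-/-) and WT. The Ctrl animals thus lacked 1 copy of each gene and carried the Cre driver, which WT did not. The Vasa promoter drives Cre in germ cells, and the labels name no sorting step.

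An imprinted gene is transcribed from the copy inherited from 1 parent, because the copies carry different DNA methylation at a control region. Male germ cells erase these marks before birth and then write the paternal pattern, and methylation of histone H3 at lysine 9 helps to protect marks after fertilization. Jmjd1a and Jmjd1b, listed as Kdm3a and Kdm3b, remove methyl groups from that lysine. Many imprinted genes act in fetal and placental growth, and several clusters hold a long non-coding RNA beside coding genes.

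Kdm3a and Kdm3b transcripts were lower in DKO libraries but not at 0. Kdm3a had 8.97 and 7.59 RPKM in P7 DKO libraries, against 27.2 and 27.1 RPKM in P7 Ctrl libraries, and 12.1 and 14.3 RPKM in P3 DKO libraries, against 28.4 and 26.3 RPKM in P3 Ctrl libraries. Kdm3b had 6.49 and 6.73 RPKM in P7 DKO libraries, against 17.3 and 16.1 RPKM in P7 Ctrl libraries, and 4.26 and 4.48 RPKM in P3 DKO libraries, against 10.2 and 13.5 RPKM in P3 Ctrl libraries. The deleted parts of the genes are not known from the labels, so remaining reads do not tell whether protein was made. The germ cell markers Ddx4, Dazl, Dnd1, Mael, Nanos3 and Sall4 summed to between 975 and 1397 RPKM in the 14 libraries. Libraries P3 Jmjd1aKO replicate 2 and P3 Jmjd1bKO replicate 2 stood apart: 10 Sertoli markers summed to 839 and 1033 RPKM there, against 58.8 and 43.1 RPKM in replicate 1 of these groups. Depth, estimated from the steps between low RPKM values, was 13.5 to 49.7 M fragments. Whether the 2 libraries of a group come from separate animals is not stated in the labels; the p-values then reflect the scatter of these libraries alone, which may be technical. The P7 Ctrl pair differed by a median variance 2.62 times that of counting alone at the estimated depth, against 5.32 to 59.0 times in the other groups; results were therefore also taken without either library of that pair.

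Stretches before a transcript start that RefSeq lists are shown for some of the genes described below. They are 250-base windows on the plus strand of GRCm38.p6, taken from RefSeq, and the capitals mark TGCCGC or its reverse complement GCGGCA, the core of the site that the protein Zfp57 binds when its CpG is methylated. Several genes have more than 1 such start, and the start of a RefSeq transcript can lie within the gene as the annotation used for positions here (GENCODE M21) places it. The first 3 are maternally expressed non-coding RNAs of the Dlk1-Dio3 cluster, whose levels were compared side by side, shown by the first window of Meg3 and the only ones of Rian and Mirg: Meg3 (chr12:109540746-109540995, 10 CpG), Rian (chr12:109603695-109603944, 0 CpG) and Mirg (chr12:109734731-109734980, 10 CpG).
Meg3: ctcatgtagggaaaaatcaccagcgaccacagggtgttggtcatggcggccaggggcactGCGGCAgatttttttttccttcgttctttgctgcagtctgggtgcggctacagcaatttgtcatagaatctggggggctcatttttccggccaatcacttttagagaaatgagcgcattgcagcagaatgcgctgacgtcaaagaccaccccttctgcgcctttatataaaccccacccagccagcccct
Rian: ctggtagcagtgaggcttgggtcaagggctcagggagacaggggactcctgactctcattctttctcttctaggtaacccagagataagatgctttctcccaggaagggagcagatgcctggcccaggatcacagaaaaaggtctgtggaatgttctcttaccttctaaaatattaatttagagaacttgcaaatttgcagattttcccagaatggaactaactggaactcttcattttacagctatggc
Mirg: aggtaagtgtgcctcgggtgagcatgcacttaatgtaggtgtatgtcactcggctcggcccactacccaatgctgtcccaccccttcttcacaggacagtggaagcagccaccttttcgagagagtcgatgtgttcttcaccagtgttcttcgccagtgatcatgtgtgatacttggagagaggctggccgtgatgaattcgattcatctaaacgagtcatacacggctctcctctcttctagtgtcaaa
The other 3 are paternally expressed genes that were higher in P7 DKO, and they were picked because a window of each holds the hexamer. They are Zdbf2 (chr1:63200108-63200357, 13 CpG), Mcts2 (chr2:152686898-152687147, 20 CpG) and Mest (chr6:30737800-30738049, 14 CpG).
Zdbf2: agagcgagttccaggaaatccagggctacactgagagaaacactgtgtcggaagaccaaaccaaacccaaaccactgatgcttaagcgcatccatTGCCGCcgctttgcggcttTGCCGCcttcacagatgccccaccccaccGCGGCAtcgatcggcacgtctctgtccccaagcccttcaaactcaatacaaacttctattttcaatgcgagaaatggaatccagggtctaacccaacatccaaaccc
Mcts2: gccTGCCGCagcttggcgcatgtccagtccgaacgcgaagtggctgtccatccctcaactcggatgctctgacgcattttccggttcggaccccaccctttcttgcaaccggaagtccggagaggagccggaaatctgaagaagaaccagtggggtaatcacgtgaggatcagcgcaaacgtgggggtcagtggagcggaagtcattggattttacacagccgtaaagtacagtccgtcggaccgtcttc
Mest: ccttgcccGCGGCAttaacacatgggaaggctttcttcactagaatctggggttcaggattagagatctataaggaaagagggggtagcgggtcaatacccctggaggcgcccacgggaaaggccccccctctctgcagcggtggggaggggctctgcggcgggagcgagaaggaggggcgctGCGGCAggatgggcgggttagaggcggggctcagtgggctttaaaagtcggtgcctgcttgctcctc
The Mirg and Mest windows lie inside the genes as annotated. The Mcts2 window runs past the annotated start at 152687035, and the Rian window by a few bases past that at 109603940. The Zdbf2 window lies upstream of the annotated start at 63273265. The Meg3 window shown holds the hexamer once, while its second window (chr12:109545148-109545397) and those of Rian and Mirg do not hold it. The windows shown of Zdbf2, Mcts2 and Mest hold it 3, 1 and 2 times. It is not in the Zdbf2 window at the annotated start (chr1:63273019-63273268, 26 CpG) or in the Mest window chr6:30733256-30733505 (7 CpG), and a further Mest window, moved by a few bases from the one shown, holds it 2 times. Of the 30 members with a window, 6 (20%) had the hexamer on either strand in at least 1 window: Zdbf2, Mcts2, Mest, Plagl1, Meg3 and Zim1. It stood in at least 1 window of 9.84% of all genes in the table. Member windows had a median of 10 CpG, against 6 over all windows. The hexamer was in 3 of the 8 members with a window that were higher in P7 DKO and in 1 of the 4 that were lower. H19, Kcnk9, Peg13, Rtl1, Sgce, Cdkn1c, Nespas and Peg10 have no window in the table. Impact was left out when windows were read, so whether RefSeq lists a start for it is not shown here. The counts of members with a window or with the hexamer, including those higher in P7 DKO, therefore do not cover Impact.

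Of the 39 members, 15 averaged at least 10 RPKM over the 14 libraries, 17 averaged 1 to 10 RPKM and 7 averaged under 1 RPKM. Gnas, H19, Mest and Mcts2 had the highest means, with 79.5, 69.2, 40.005 and 39.3 RPKM. A gene was tested if it reached 1 RPKM in at least 2 libraries, which 33 members did: 20 of the 24 paternally expressed, 12 of the 14 maternally expressed, and Gnas. The highest of the 7 group means lay in P3 DKO for 13 of the 33 and in P7 DKO for 9. The lowest lay in P7 Ctrl for 10, in P7 DKO for 9 and in P3 WT for 6. These counts were not set against those of all tested genes, so they do not mark a trait of imprinted genes. Changes below are differences of log2(RPKM + 1) ± SE from limma, fitted over all tested genes, with Benjamini-Hochberg adjusted p-values and a threshold of 0.05; the added 1 makes the change of a weakly expressed gene smaller. Of the 33, 26 passed in at least 1 of 8 comparisons.

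**Figure D1:**
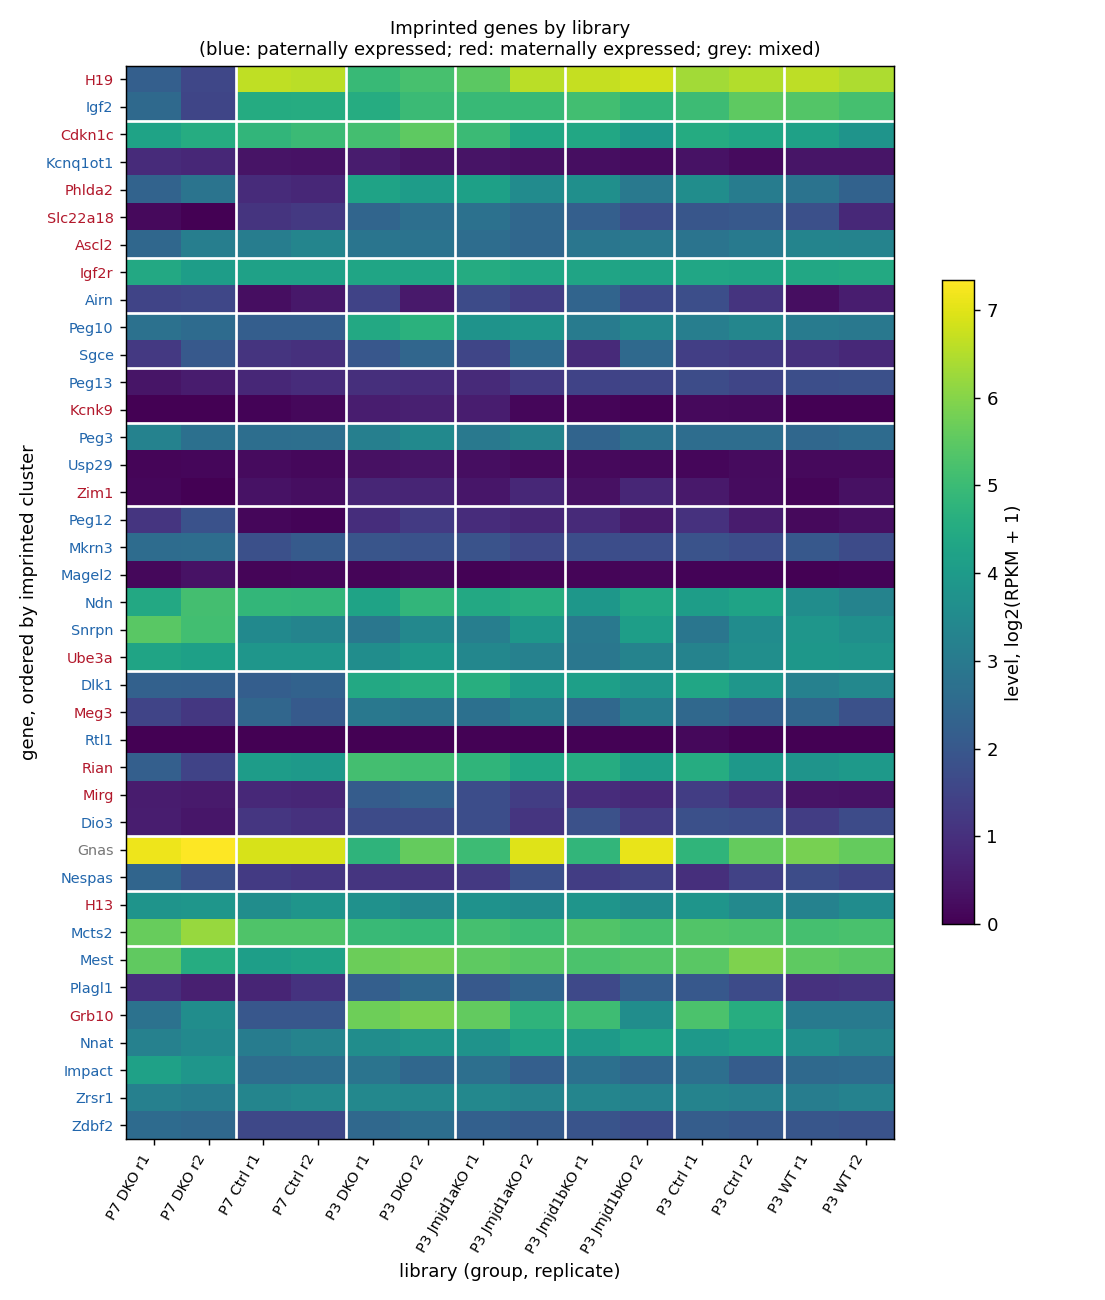
Level of each of the 39 imprinted genes, as log2(RPKM + 1), in each of the 14 libraries, with genes ordered by cluster down the page and white lines between clusters and groups. H19 and Gnas have the brightest rows; H19, Igf2 and Rian are dark in both P7 DKO libraries, and Gnas is bright in replicate 2 of Jmjd1aKO and Jmjd1bKO.

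In P7 DKO germ cells, imprinted genes moved in both directions. Of the 33 tested members 15 changed, 10 higher and 5 lower than in P7 Ctrl, where 33.5% of all tested genes changed (17.4% higher and 16.1% lower). Among the 20 paternally expressed members, 9 rose (Airn, Peg12, Mkrn3, Snrpn, Nespas, Mcts2, Mest, Impact and Zdbf2) and 1 fell (Igf2), with a median log2 difference of 0.51. Among the 12 maternally expressed members, 1 rose (Phlda2) and 4 fell (H19, Slc22a18, Meg3 and Rian), with a median of -0.35. The median over all 33 was 0.16 and over all tested genes 0.02. The difference between members grouped by known allele was read from counts and was not itself tested. Markers of other cell types and of germ cell stages differed too. Undifferentiated spermatogonial markers (8 genes) summed to 75.1 to 202 RPKM in P7 DKO, against 699 to 706 RPKM in P7 Ctrl. Differentiating spermatogonial markers (5 genes) summed to 616 to 770.2 RPKM in P7 DKO, against 204 to 205 RPKM in P7 Ctrl. Among these 5, Sohlh1 averaged 74.7 RPKM in P7 DKO, against 78.0 RPKM in P7 Ctrl, while the others averaged higher in P7 DKO. Stromal markers (9 genes, with Tcf21 at 0 in both groups and Lum at 0 in DKO) summed to 6.01 to 7.13 RPKM in P7 DKO, against 19.2 RPKM in P7 Ctrl. Of these, Col1a1 and Pdgfra averaged 3.96 and 1.14 RPKM in P7 DKO, against 14.2 and 3.99 RPKM in P7 Ctrl. Acta2, Myh11, Col1a2 and Des averaged 0.530, 0.255, 0.283 and 0.275 RPKM in P7 DKO, against 0.294, 0.119, 0.157 and 0.267 RPKM in P7 Ctrl. Endothelial markers (7 genes) summed to 2.05 to 2.35 RPKM in P7 DKO, against 9.497 to 9.63 RPKM in P7 Ctrl. Of these, Cldn5 alone averaged higher, at 0.291 RPKM in P7 DKO, against 0.215 RPKM in P7 Ctrl. Sertoli markers overlapped, at 112 to 223 RPKM in P7 DKO, against 150.4 to 172 RPKM in P7 Ctrl. Their part in the changes of imprinted genes was not tested; in bulk RNA, fewer cells of a type and less RNA per cell cannot be told apart. Without a filter on low values the adjusted p was 0.0703 for Airn, 0.0644 for Meg3 and 0.0763 for Mest. With the P7 groups alone in the fit it was 0.113 for Mcts2, 0.153 for Mest and 0.0551 for Nespas, and under quantile normalization 0.0578 for Meg3. Without either P7 Ctrl library the number of changed members was 8 (without replicate 1) or 9 (without replicate 2), and without P7 DKO replicate 1 or 2 it was 12 or 11. H19, Igf2, Rian, Phlda2, Peg12, Snrpn, Impact and Zdbf2 passed in each of these fits. Leaving out any P7 library lowered the number of all tested genes that passed as well.

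**Figure D2:**
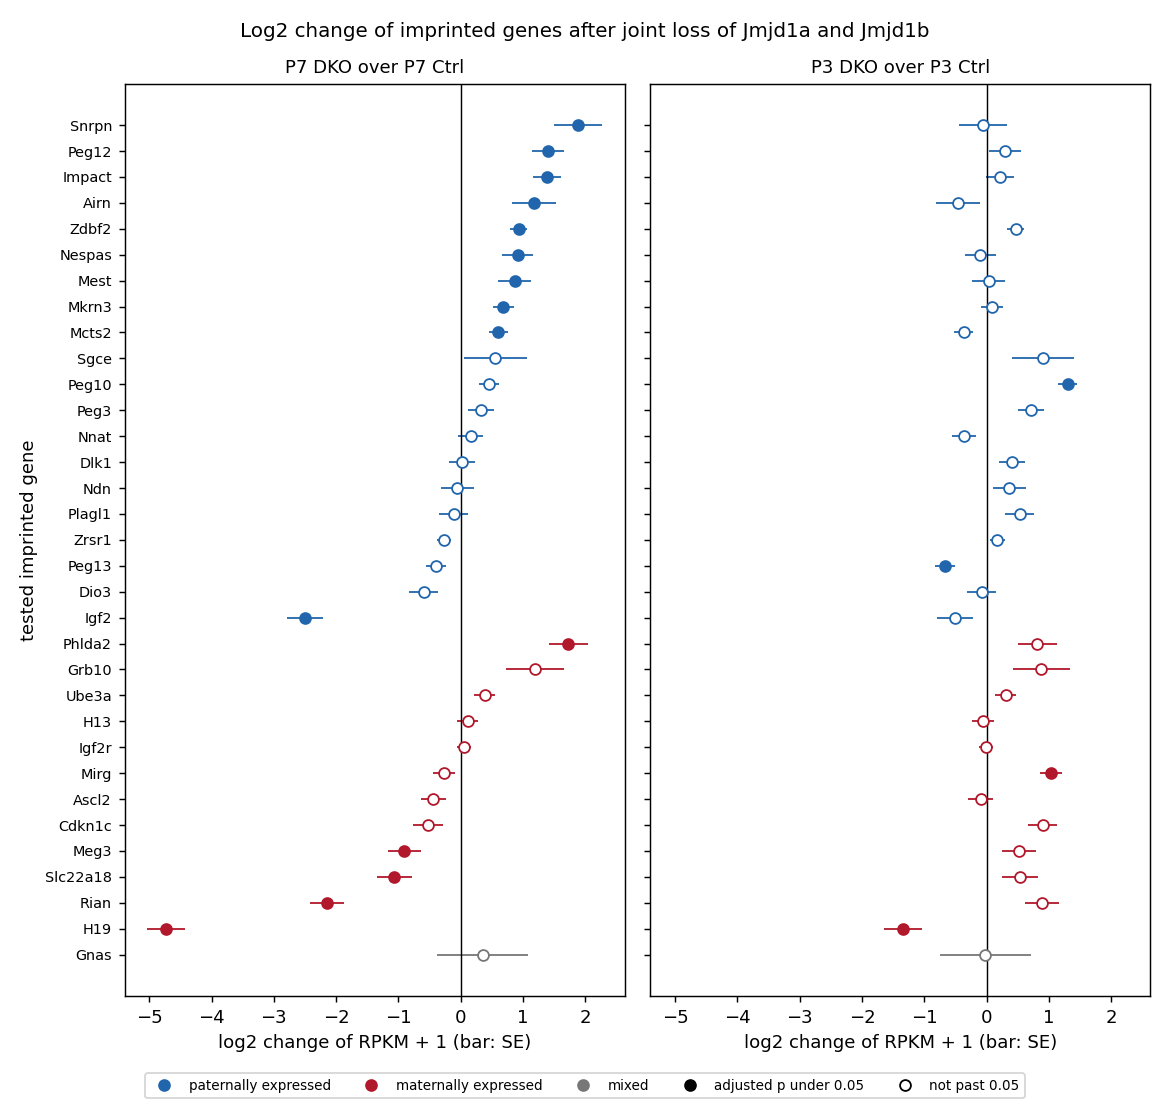
Difference in log2(RPKM + 1) of the 33 tested imprinted genes, DKO over Ctrl, at P7 (left) and P3 (right), with bars for the SE; filled points have an adjusted p under 0.05. At P7, H19 lies at -4.72 and Snrpn at 1.88; at P3, 4 points are filled.

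In P3 DKO germ cells 4 of the 33 members changed, 2 higher and 2 lower than in P3 Ctrl, where 4.47% of all tested genes changed (2.18% higher and 2.29% lower). The rises were at Peg10 and Mirg, the falls at Peg13 and H19. The 2 that rose differ in parental allele, as do the 2 that fell: Peg10 and Peg13 are paternally expressed, Mirg and H19 maternally. The median log2 difference was 0.22 over the 33 members and 0.01 over all tested genes; at an unadjusted p under 0.05 there were 10 members, against 24.5% of all tested genes. Under quantile normalization the split of the members was 2 higher and 1 lower, and that of all tested genes 225 higher and 226 lower. With each library centred on its median, 277 of all tested genes were higher and 503 lower, against 322 and 339 as deposited. H19 was the 1 member that changed at both ages. The summed stromal markers stood at 30.3 RPKM in both P3 DKO libraries, against 13.998 to 18.4 RPKM in P3 Ctrl, Sertoli markers at 63.8 to 68.1 RPKM in P3 DKO, against 41.9 to 50.5 RPKM in P3 Ctrl, and undifferentiated spermatogonial markers at 303 to 315 RPKM in P3 DKO, against 501 to 532 RPKM in P3 Ctrl; their part was not tested. These calls rest on few libraries: 1 and 0 of the members passed without P3 DKO replicate 1 and 2, and 2 and 0 without P3 Ctrl replicate 1 and 2. The adjusted p of H19 was 0.158 leaving out P3 DKO replicate 1, 0.2 leaving out P3 DKO replicate 2, 0.0922 leaving out P3 Ctrl replicate 1 and 0.225 leaving out P3 Ctrl replicate 2, and that of Peg13 0.13 leaving out P3 DKO replicate 1, 0.245 leaving out P3 DKO replicate 2, 0.13 leaving out P3 Ctrl replicate 1 and 0.193 leaving out P3 Ctrl replicate 2. For Mirg it was 0.0622 leaving out P3 DKO replicate 1, 0.17 leaving out P3 DKO replicate 2 and 0.168 leaving out P3 Ctrl replicate 2, and for Peg10 0.0846 leaving out P3 DKO replicate 2 and 0.0625 leaving out P3 Ctrl replicate 2. Fewer of all tested genes passed as well when any P3 DKO or P3 Ctrl library was left out. None of the 4 passed in limma when the fit held the P3 DKO and P3 Ctrl libraries alone. The adjusted p-values were then 0.0931 for H19, 0.0931 for Peg10, 0.0934 for Mirg and 0.101 for Peg13. In that fit 11 of all tested genes were called higher and 6 lower. For H19 the adjusted p was also 0.0597 under quantile normalization, 0.064 when 0.1 was added in place of 1 and 0.0569 with all 24340 genes tested, and for Peg13 it was 0.0795 when 0.1 was added.

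The DKO change differed between P7 and P3 for 12 of the 33 members, tested as the change at P7 minus that at P3; 4 differences were positive and 8 negative, where 22.9% of all tested genes differed (12.2% positive and 10.7% negative). Under quantile normalization the split of the members was 6 positive and 7 negative, and that of all tested genes 1191 positive and 1262 negative. With each library centred on its median, 2269 of all tested genes were positive and 1250 negative, against 1800 and 1583 as deposited. The positive differences were at paternally expressed genes: Snrpn with 1.93 ± 0.55 (adjusted p = 0.0308), Airn with 1.63 ± 0.50 (adjusted p = 0.0412), Impact with 1.17 ± 0.32 (adjusted p = 0.0281) and Mcts2 with 0.97 ± 0.22 (adjusted p = 0.0133). The negative ones took in 6 maternally expressed genes, H19 with -3.39 ± 0.43 (adjusted p = 0.00128), Rian with -3.03 ± 0.39 (adjusted p = 0.00129), Slc22a18 with -1.61 ± 0.40 (adjusted p = 0.0189), Meg3 with -1.42 ± 0.38 (adjusted p = 0.0246), Cdkn1c with -1.42 ± 0.34 (adjusted p = 0.0161) and Mirg with -1.30 ± 0.25 (adjusted p = 0.00619). The other two were the paternally expressed Igf2 with -1.99 ± 0.41 (adjusted p = 0.00856) and Peg10 with -0.84 ± 0.23 (adjusted p = 0.0251). None of the 12 tested maternally expressed members had a positive difference that passed, and their median was -0.82, against -0.03 over all tested genes. The number of members passing was 4 without P3 DKO replicate 2 (H19, Igf2, Rian and Mirg), 6 without P7 Ctrl replicate 1, 5 without P7 Ctrl replicate 2 and 8 to 10 without any other library. Without P3 DKO replicate 2 the adjusted p was 0.136 for Airn, 0.0658 for Cdkn1c, 0.105 for Impact, 0.0503 for Mcts2, 0.0634 for Meg3, 0.0989 for Peg10, 0.0734 for Slc22a18 and 0.0528 for Snrpn. Without P7 Ctrl replicate 1 the members that passed were Cdkn1c, H19, Igf2, Mcts2, Mirg and Rian, and without P7 Ctrl replicate 2 they were H19, Igf2, Meg3, Mirg and Rian. The number of all tested genes that passed also fell when any library of these DKO and Ctrl groups was left out. Without a filter on low values the adjusted p was 0.0838 for Airn, 0.0541 for Impact, 0.053 for Meg3 and 0.072 for Snrpn. Under quantile normalization it was 0.0573 for Meg3.

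In the H19-Igf2 cluster both genes were lower in P7 DKO. H19 (chr7:142575529-142578143, minus strand), a maternally expressed non-coding RNA, had 3.70 and 1.94 RPKM in P7 DKO libraries, against 99.0 and 95.5 RPKM in P7 Ctrl libraries. At P3, H19 had 29.8 and 35.7 RPKM in DKO, 44.3 and 93.9 in Jmjd1aKO, 103 and 111 in Jmjd1bKO, 78.9 and 89.4 in Ctrl and 97.1 and 84.9 in WT libraries. Both P7 DKO libraries lay below every other library, and both P3 DKO libraries lay below the remaining 10. H19 fell by 4.72 ± 0.31 (adjusted p = 1.45e-05) in P7 DKO on the log2 scale, a fold of 26.4 on the RPKM + 1 scale, and fell by 1.34 ± 0.31 (adjusted p = 0.0415) in P3 DKO. Igf2 (chr7:142650766-142666816, minus strand), the paternally expressed growth factor gene of the same cluster, had 4.68 and 1.89 RPKM in P7 DKO libraries, against 21.7 and 22.2 RPKM in P7 Ctrl libraries. At P3, Igf2 had 22.4 and 30.8 RPKM in DKO, 29.9 and 29.5 in Jmjd1aKO, 34.0 and 27.3 in Jmjd1bKO, 31.9 and 45.0 in Ctrl and 40.9 and 35.2 in WT libraries. The P7 DKO libraries were again the lowest of all 14, while the P3 DKO libraries lay below both P3 Ctrl libraries. Igf2 fell by 2.50 ± 0.29 (adjusted p = 0.000241) in P7 DKO; at P3 the difference was -0.51 ± 0.29 (adjusted p = 0.308).

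In the Kcnq1ot1 domain on chromosome 7, maternally expressed genes differed in direction. Phlda2, a small protein that limits placental growth, had 4.03 and 6.08 RPKM in P7 DKO libraries, against 0.864 and 0.745 RPKM in P7 Ctrl libraries. At P3, Phlda2 had 18.3 and 15.8 RPKM in DKO, 17.1 and 10.6 in Jmjd1aKO, 11.6 and 6.79 in Jmjd1bKO, 11.2 and 7.55 in Ctrl and 5.99 and 3.97 in WT libraries. The P7 Ctrl libraries were the lowest of all, and the P3 DKO libraries overlapped those of Jmjd1aKO. Phlda2 rose by 1.73 ± 0.31 (adjusted p = 0.00252) in P7 DKO. Slc22a18, a member of a transporter family, had 0.149 and 0 RPKM in P7 DKO libraries, against 1.16 and 1.34 RPKM in P7 Ctrl libraries. At P3, Slc22a18 had 4.27 and 5.46 RPKM in DKO, 5.71 and 4.49 in Jmjd1aKO, 3.63 and 2.42 in Jmjd1bKO, 2.91 and 3.13 in Ctrl and 2.46 and 0.813 in WT libraries. It was close to or at 0 in P7 DKO and lower in P7 Ctrl than in every P3 library but WT replicate 2. Slc22a18 fell by 1.07 ± 0.28 (adjusted p = 0.0165) in P7 DKO, and its adjusted p was 0.0886 leaving out P7 DKO replicate 2, 0.067 leaving out P7 Ctrl replicate 1 and 0.0908 leaving out P7 Ctrl replicate 2. Cdkn1c, which codes for an inhibitor of the cell cycle kinases, had 17.98 and 22.4 RPKM in P7 DKO libraries, against 27.3 and 31.3 RPKM in P7 Ctrl libraries. At P3, Cdkn1c had 34.6 and 44.4 RPKM in DKO, 31.0 and 20.0 in Jmjd1aKO, 20.1 and 14.3 in Jmjd1bKO, 21.9 and 19.3 in Ctrl and 17.3 and 12.98 in WT libraries. It was lower in both P7 DKO libraries than in P7 Ctrl and higher in both P3 DKO libraries than in P3 Ctrl. Neither difference passed, with -0.52 ± 0.24 (adjusted p = 0.122) at P7 and 0.90 ± 0.24 (adjusted p = 0.0612) at P3, whereas the difference between the ages did. The P3 rise of Cdkn1c passed when both libraries high in Sertoli transcripts were left out of the fit, as did those of Peg3 and Zdbf2; in that fit 1093 of all tested genes passed as higher and 838 as lower. Ascl2, a transcription factor of the trophoblast, ranged over group means from 4.80 to 8.88 RPKM and passed in none of the 8 comparisons. Kcnq1ot1, the paternally expressed non-coding RNA that silences the domain in cis, did not reach 1 RPKM in any library. Its values were 0.874 and 0.750 RPKM in P7 DKO libraries, against 0.308 and 0.277 RPKM in P7 Ctrl libraries, and it was not tested.

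**Figure D3:**
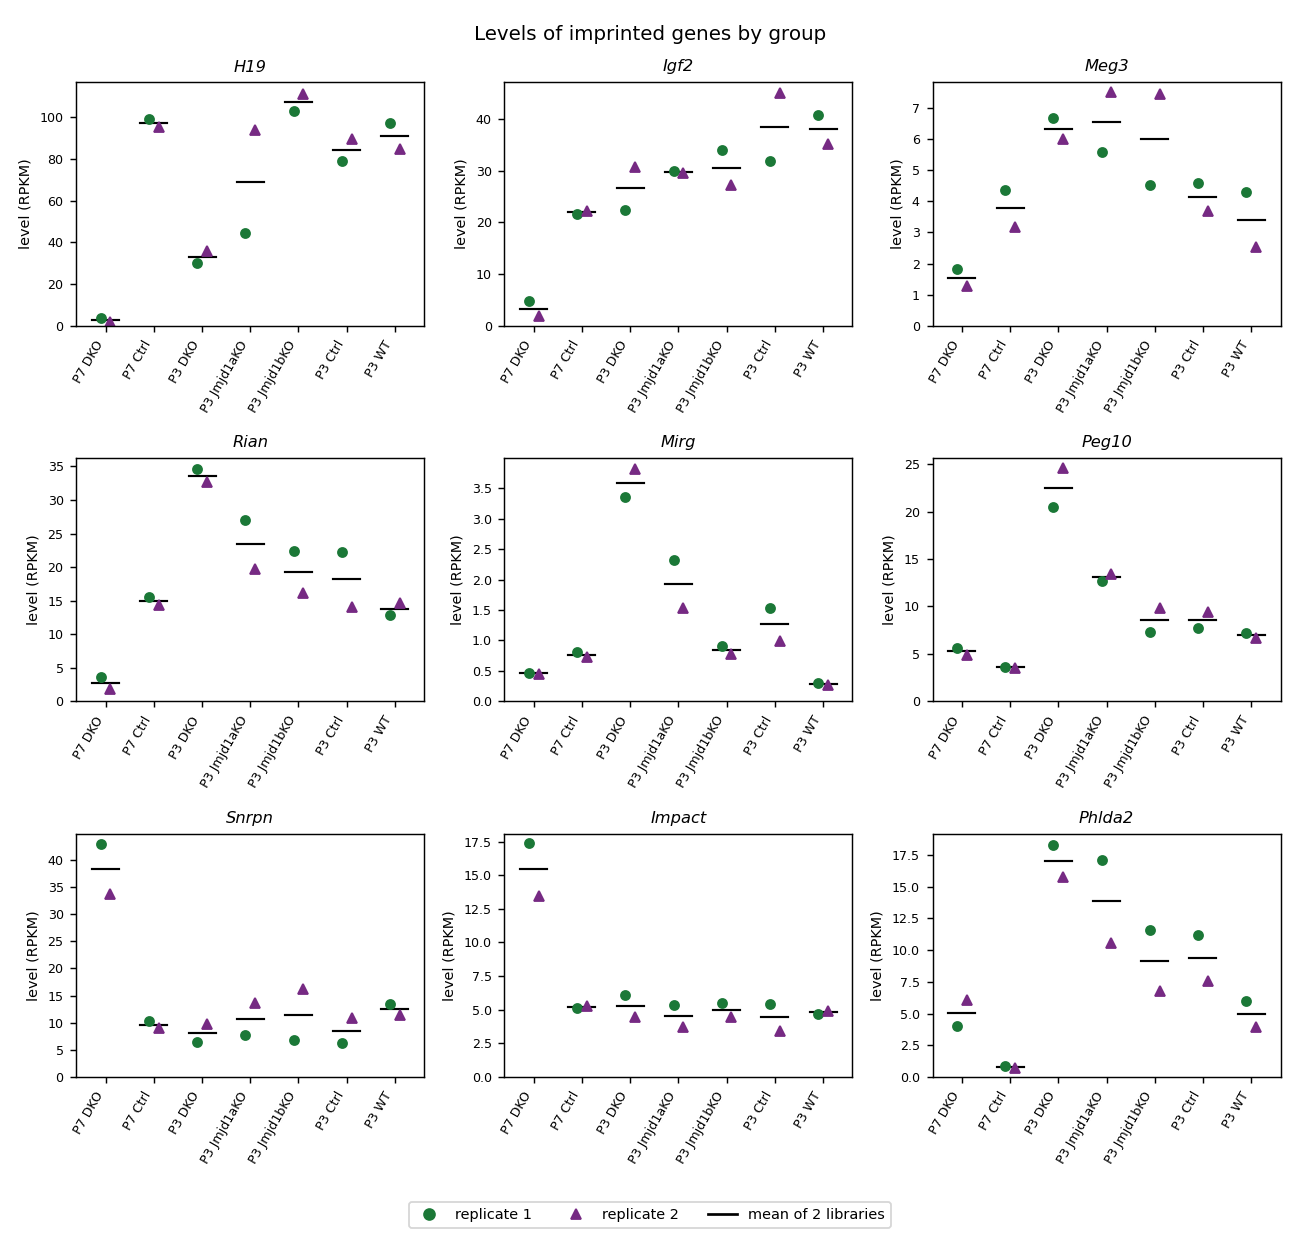
Level in RPKM of 9 imprinted genes in each library, with a bar for the mean of the 2 libraries of a group and P7 groups left of P3 groups. H19, Igf2, Meg3 and Rian are lowest in P7 DKO, Peg10 and Mirg highest in P3 DKO, and Snrpn and Impact highest in P7 DKO.

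In the Dlk1-Dio3 cluster on chromosome 12, RefSeq windows of the maternally expressed RNAs Meg3, Rian and Mirg are shown above. In every library these RNAs stood higher in P3 DKO than in P3 Ctrl and lower in P7 DKO than in P7 Ctrl. Over all tested genes, both DKO libraries lay above both Ctrl libraries in 30.8% at P3 and below them in 35.4% at P7. Meg3 (chr12:109541001-109571726, plus strand) had 1.82 and 1.28 RPKM in P7 DKO libraries, against 4.38 and 3.18 RPKM in P7 Ctrl libraries. At P3, Meg3 had 6.68 and 6.01 RPKM in DKO, 5.59 and 7.52 in Jmjd1aKO, 4.52 and 7.47 in Jmjd1bKO, 4.59 and 3.69 in Ctrl and 4.30 and 2.53 in WT libraries. At P3 the DKO values lay within the range of the single knockouts. Meg3 fell by 0.91 ± 0.27 (adjusted p = 0.0268) in P7 DKO, and the P3 difference was 0.52 ± 0.27 (adjusted p = 0.267); at P7 the adjusted p was 0.143 leaving out P7 DKO replicate 2, 0.172 leaving out P7 Ctrl replicate 1 and 0.0539 leaving out P7 Ctrl replicate 2. Rian (chr12:109603940-109661716, plus strand), host of many small nucleolar RNAs, had 3.63 and 1.80 RPKM in P7 DKO libraries, against 15.5 and 14.3 RPKM in P7 Ctrl libraries. At P3, Rian had 34.6 and 32.7 RPKM in DKO, 27.0 and 19.8 in Jmjd1aKO, 22.4 and 16.1 in Jmjd1bKO, 22.3 and 14.1 in Ctrl and 12.9 and 14.7 in WT libraries. Its P3 DKO libraries were the highest and its P7 DKO libraries the lowest of all 14. Rian fell by 2.14 ± 0.28 (adjusted p = 0.000443) in P7 DKO, and the P3 difference was 0.89 ± 0.28 (adjusted p = 0.0899). Mirg (chr12:109729764-109749460, plus strand), host of microRNAs, had 0.473 and 0.456 RPKM in P7 DKO libraries, against 0.804 and 0.726 RPKM in P7 Ctrl libraries. At P3, Mirg had 3.36 and 3.82 RPKM in DKO, 2.32 and 1.53 in Jmjd1aKO, 0.904 and 0.780 in Jmjd1bKO, 1.54 and 0.988 in Ctrl and 0.304 and 0.276 in WT libraries. Its P3 DKO libraries were the highest of all, followed by Jmjd1aKO, whose lower library lay level with the higher Ctrl library. Mirg rose by 1.03 ± 0.17 (adjusted p = 0.0222) in P3 DKO; at P7 the difference was -0.27 ± 0.17 (adjusted p = 0.272). The paternally expressed Dlk1, a membrane protein related to the ligands of Notch, had 3.88 and 3.78 RPKM in P7 DKO libraries, against 3.55 and 3.96 RPKM in P7 Ctrl libraries. At P3, Dlk1 had 20.7 and 23.0 RPKM in DKO, 23.4 and 15.6 in Jmjd1aKO, 16.5 and 13.6 in Jmjd1bKO, 19.4 and 13.5 in Ctrl and 8.28 and 9.70 in WT libraries. The P7 groups overlapped and both lay below all P3 libraries. Dio3, which inactivates thyroid hormone, had 0.503 and 0.350 RPKM in P7 DKO libraries, against 1.24 and 1.06 RPKM in P7 Ctrl libraries. At P3, Dio3 had 2.21 and 2.22 RPKM in DKO, 2.30 and 1.19 in Jmjd1aKO, 2.55 and 1.46 in Jmjd1bKO, 2.46 and 2.32 in Ctrl and 1.52 and 2.18 in WT libraries. Its P7 DKO libraries were the lowest of all 14, although the P7 difference of -0.59 ± 0.23 (adjusted p = 0.0772) did not pass. Rtl1, a gene derived from a retrotransposon, did not exceed 0.107 RPKM in any library.

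The Prader-Willi/Angelman region on chromosome 7 had 3 of 5 tested members higher in P7 DKO and none lower. Of all tested genes, 17.4% were higher and 16.1% lower. Snrpn (chr7:59982495-60140219, minus strand), a core protein of spliceosomes, had 43.0 and 33.6 RPKM in P7 DKO libraries, against 10.2 and 8.99 RPKM in P7 Ctrl libraries. At P3, Snrpn had 6.49 and 9.71 RPKM in DKO, 7.75 and 13.7 in Jmjd1aKO, 6.82 and 16.2 in Jmjd1bKO, 6.33 and 10.8 in Ctrl and 13.4 and 11.5 in WT libraries. Both P7 DKO libraries lay above all others, and the P3 groups overlapped. Snrpn rose by 1.88 ± 0.39 (adjusted p = 0.00492) in P7 DKO, a fold of 3.68 on the RPKM + 1 scale. Snurf, whose exons share 216 bases with those of Snrpn on the same strand (10% of the Snrpn exons), rose by 0.94 ± 0.14 (adjusted p = 0.000995); reads of the pair may be split between the symbols. Peg12, a gene of the Frat family that acts in Wnt signalling, had 1.18 and 2.63 RPKM in P7 DKO libraries, against 0.0862 and 0.0446 RPKM in P7 Ctrl libraries. At P3, Peg12 had 0.963 and 1.36 RPKM in DKO, 0.892 and 0.714 in Jmjd1aKO, 0.830 and 0.435 in Jmjd1bKO, 1.06 and 0.478 in Ctrl and 0.137 and 0.224 in WT libraries. It was under 0.1 RPKM in P7 Ctrl alone. Peg12 rose by 1.40 ± 0.26 (adjusted p = 0.00276) in P7 DKO. Mkrn3, a ring finger protein that holds back puberty, had 5.06 and 5.20 RPKM in P7 DKO libraries, against 2.44 and 3.24 RPKM in P7 Ctrl libraries. At P3, Mkrn3 had 2.83 and 2.61 RPKM in DKO, 2.68 and 2.03 in Jmjd1aKO, 2.30 and 2.32 in Jmjd1bKO, 2.68 and 2.31 in Ctrl and 3.05 and 2.17 in WT libraries. Its P7 DKO libraries were the highest of all 14. Mkrn3 rose by 0.68 ± 0.17 (adjusted p = 0.0135) in P7 DKO, with an adjusted p of 0.0593 leaving out P7 DKO replicate 2 and 0.122 leaving out P7 Ctrl replicate 1. Ube3a, the ubiquitin ligase gene at the maternally expressed end of the region, had 18.7 and 17.1 RPKM in P7 DKO libraries, against 13.4 and 13.4 RPKM in P7 Ctrl libraries. At P3, Ube3a had 11.2 and 14.2 RPKM in DKO, 9.48 and 8.40 in Jmjd1aKO, 6.58 and 8.67 in Jmjd1bKO, 8.75 and 11.3 in Ctrl and 13.9 and 13.3 in WT libraries. The P7 DKO libraries were the highest, but the difference of 0.38 ± 0.17 (adjusted p = 0.101) did not pass. Ndn, a growth-restraining protein of the MAGE family, had group means from 9.84 to 27.7 RPKM and passed in no comparison; its relative Magel2 did not exceed 0.271 RPKM.

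At Igf2r-Airn on chromosome 17 the non-coding RNA moved and the coding gene did not pass. Airn, the paternally expressed RNA that silences Igf2r in cis, had 1.86 and 1.95 RPKM in P7 DKO libraries, against 0.199 and 0.381 RPKM in P7 Ctrl libraries. At P3, Airn had 1.77 and 0.409 RPKM in DKO, 2.20 and 1.57 in Jmjd1aKO, 4.20 and 2.14 in Jmjd1bKO, 2.40 and 1.17 in Ctrl and 0.206 and 0.506 in WT libraries. P7 Ctrl and P3 WT were the lowest groups, and replicates at P3 spread widely. Airn rose by 1.17 ± 0.35 (adjusted p = 0.0286) in P7 DKO, and its adjusted p was 0.0824 leaving out P7 DKO replicate 1, 0.109 leaving out P7 DKO replicate 2, 0.14 leaving out P7 Ctrl replicate 1 and 0.0859 leaving out P7 Ctrl replicate 2. Igf2r, the receptor that clears Igf2, had 20.6 and 15.9 RPKM in P7 DKO libraries, against 17.4 and 17.5 RPKM in P7 Ctrl libraries, a log2 difference of 0.05 ± 0.12 (adjusted p = 0.791). Its 7 group means ran from 17.4 to 20.7 RPKM. At Peg10-Sgce on chromosome 6, Peg10 (chr6:4747306-4760517, plus strand), a gene of retrotransposon origin needed in the placenta, had 5.66 and 4.92 RPKM in P7 DKO libraries, against 3.59 and 3.56 RPKM in P7 Ctrl libraries. At P3, Peg10 had 20.5 and 24.6 RPKM in DKO, 12.7 and 13.5 in Jmjd1aKO, 7.28 and 9.84 in Jmjd1bKO, 7.72 and 9.41 in Ctrl and 7.23 and 6.73 in WT libraries. Both P3 DKO libraries lay above all others, with Jmjd1aKO next. Peg10 rose by 1.30 ± 0.16 (adjusted p = 0.0121) in P3 DKO, and at P7 the difference was 0.46 ± 0.16 (adjusted p = 0.0503). Sgce, a sarcoglycan, had 1.31 and 3.12 RPKM in P7 DKO libraries, against 1.15 and 1.04 RPKM in P7 Ctrl libraries, with a difference of 0.56 ± 0.50 (adjusted p = 0.439). Peg13 (chr15:72805600-72810324, minus strand), a non-coding RNA that lies within Trappc9, had 0.327 and 0.460 RPKM in P7 DKO libraries, against 0.761 and 0.904 RPKM in P7 Ctrl libraries. At P3, Peg13 had 0.982 and 0.891 RPKM in DKO, 0.846 and 1.38 in Jmjd1aKO, 1.79 and 1.92 in Jmjd1bKO, 2.24 and 1.91 in Ctrl and 2.41 and 2.48 in WT libraries. The P7 DKO libraries were the lowest of all, and at P3 both DKO libraries lay below Ctrl, as did the Jmjd1aKO libraries. Peg13 fell by 0.66 ± 0.16 (adjusted p = 0.0453) in P3 DKO, and the P7 difference was -0.40 ± 0.16 (adjusted p = 0.0784). Its neighbour Kcnk9, a potassium channel, did not exceed 0.562 RPKM, and that value lay in P3 DKO. In the Peg3 domain the zinc finger gene Peg3 had 8.57 and 5.54 RPKM in P7 DKO libraries, against 5.31 and 5.35 RPKM in P7 Ctrl libraries and 8.06 and 10.2 RPKM in P3 DKO libraries, against 5.15 and 5.13 RPKM in P3 Ctrl libraries, and passed in none of the 8 comparisons. Usp29 and Zim1 of the same domain did not exceed 0.297 and 0.761 RPKM.

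Genes at the remaining loci that changed in P7 DKO were all higher and all paternally expressed. Impact (chromosome 18), which restrains the kinase Gcn2 of the amino acid response, had 17.4 and 13.5 RPKM in P7 DKO libraries, against 5.15 and 5.31 RPKM in P7 Ctrl libraries. At P3, Impact had 6.08 and 4.49 RPKM in DKO, 5.39 and 3.70 in Jmjd1aKO, 5.48 and 4.48 in Jmjd1bKO, 5.46 and 3.43 in Ctrl and 4.71 and 4.89 in WT libraries. The P7 DKO libraries lay above all others. Impact rose by 1.39 ± 0.23 (adjusted p = 0.00152) in P7 DKO, a fold of 2.62 on the RPKM + 1 scale. Zdbf2, a zinc finger gene needed for early growth, had 4.90 and 4.60 RPKM in P7 DKO libraries, against 1.997 and 2.03 RPKM in P7 Ctrl libraries. At P3, Zdbf2 had 4.62 and 5.32 RPKM in DKO, 3.75 and 3.30 in Jmjd1aKO, 2.76 and 2.30 in Jmjd1bKO, 3.49 and 3.13 in Ctrl and 2.89 and 2.66 in WT libraries. P7 DKO and P3 DKO overlapped each other and lay above every other library. Zdbf2 rose by 0.93 ± 0.14 (adjusted p = 0.000844) in P7 DKO, and the P3 difference was 0.47 ± 0.14 (adjusted p = 0.0744). Mest, an enzyme of the hydrolase family, had 45.3 and 22.2 RPKM in P7 DKO libraries, against 16.4 and 17.6 RPKM in P7 Ctrl libraries. At P3, Mest had 50.7 and 54.1 RPKM in DKO, 44.9 and 41.7 in Jmjd1aKO, 37.2 and 39.5 in Jmjd1bKO, 43.4 and 60.1 in Ctrl and 44.9 and 42.0 in WT libraries. Both P7 DKO libraries lay above P7 Ctrl, replicate 1 by far the more. Mest rose by 0.87 ± 0.26 (adjusted p = 0.0293) in P7 DKO, 0.37 without P7 DKO replicate 1; the adjusted p was 0.139 leaving out P7 DKO replicate 1, 0.132 leaving out P7 Ctrl replicate 1 and 0.0942 leaving out P7 Ctrl replicate 2. Mest shares 912 exonic bases with Copg2 on the opposite strand. Mcts2, a retrogene within an intron of H13, had 48.3 and 72.9 RPKM in P7 DKO libraries, against 38.98 and 38.6 RPKM in P7 Ctrl libraries. At P3, Mcts2 had 30.5 and 29.3 RPKM in DKO, 35.0 and 31.8 in Jmjd1aKO, 39.8 and 35.6 in Jmjd1bKO, 39.5 and 38.3 in Ctrl and 35.3 and 36.4 in WT libraries. Its P7 DKO libraries were the highest and its P3 DKO libraries the lowest of all 14. Mcts2 rose by 0.60 ± 0.16 (adjusted p = 0.0151) in P7 DKO, 0.31 without P7 DKO replicate 2; the adjusted p was 0.0593 leaving out P7 DKO replicate 2, 0.0727 leaving out P7 Ctrl replicate 1 and 0.0774 leaving out P7 Ctrl replicate 2. The maternally expressed host H13, a signal peptide peptidase, had 12.9 and 13.4 RPKM in P7 DKO libraries, against 11.01 and 13.3 RPKM in P7 Ctrl libraries and passed in no comparison. At the Gnas locus, Nespas, the paternally expressed antisense RNA, had 4.29 and 2.56 RPKM in P7 DKO libraries, against 1.36 and 1.26 RPKM in P7 Ctrl libraries. At P3, Nespas had 1.19 and 1.13 RPKM in DKO, 1.33 and 2.49 in Jmjd1aKO, 1.54 and 1.71 in Jmjd1bKO, 0.967 and 1.72 in Ctrl and 2.25 and 1.84 in WT libraries. Only the P7 DKO libraries exceeded 2.49 RPKM. Nespas rose by 0.91 ± 0.25 (adjusted p = 0.0186) in P7 DKO, and the adjusted p was 0.118 leaving out P7 DKO replicate 1, 0.079 leaving out P7 Ctrl replicate 1 and 0.0942 leaving out P7 Ctrl replicate 2. Gnas, the stimulatory G protein gene, had 142 and 161 RPKM in P7 DKO libraries, against 119 and 118 RPKM in P7 Ctrl libraries, with a difference of 0.35 ± 0.73 (adjusted p = 0.771). At P3, Gnas had 26.4 and 47.3 RPKM in DKO, 31.6 and 126 in Jmjd1aKO, 27.7 and 136 in Jmjd1bKO, 26.9 and 47.8 in Ctrl and 55.7 and 47.5 in WT libraries. P7 libraries of both groups lay above the P3 DKO, Ctrl and WT libraries. As for every gene, the SE of Gnas draws on the spread within all groups, and Gnas spread most in the single knockouts. The pair shares 988 exonic bases on opposite strands (31.4% of the Nespas exons), and whether the counting used strand is not given in the sources used here, so reads of the pair may not be told apart.

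In the controls, the imprinted genes that differed with age were all lower at P7 than at P3. Of the 33 members, 9 were lower in P7 Ctrl than in P3 Ctrl and 0 higher, where 23.3% of all tested genes changed (9.94% higher and 13.4% lower); under quantile normalization 1587 were higher and 1424 lower, against 1468 and 1973 as deposited. The members that fell were 7 paternally expressed genes (Peg10, Peg13, Dlk1, Mest, Plagl1, Nnat and Zdbf2) and the maternally expressed Phlda2 and Grb10. The median log2 difference was -0.23 over the 33 and -0.01 over all tested genes. Grb10, an adaptor that damps growth factor receptors, had 5.76 and 11.1 RPKM in P7 DKO libraries, against 2.97 and 2.96 RPKM in P7 Ctrl libraries. At P3, Grb10 had 51.7 and 57.5 RPKM in DKO, 47.0 and 26.5 in Jmjd1aKO, 32.6 and 11.2 in Jmjd1bKO, 37.6 and 22.6 in Ctrl and 7.04 and 6.94 in WT libraries. All P7 Ctrl values lay below those of P3 Ctrl, and among P3 groups WT was low and DKO high. Grb10 fell by 2.93 ± 0.46 (adjusted p = 0.00409) in P7 Ctrl. Phlda2 fell by 2.50 ± 0.31 (adjusted p = 0.00212) and Dlk1 fell by 1.86 ± 0.21 (adjusted p = 0.00151). Mest fell by 1.53 ± 0.26 (adjusted p = 0.00544) and Peg10 fell by 1.06 ± 0.16 (adjusted p = 0.00354). Plagl1, a zinc finger transcription factor of an imprinted growth network, had 0.931 and 0.576 RPKM in P7 DKO libraries, against 0.706 and 1.09 RPKM in P7 Ctrl libraries. At P3, Plagl1 had 3.70 and 4.74 RPKM in DKO, 3.11 and 4.17 in Jmjd1aKO, 2.08 and 3.65 in Jmjd1bKO, 3.04 and 2.21 in Ctrl and 1.07 and 1.14 in WT libraries. The P7 groups overlapped, and WT was lowest among the P3 groups. Plagl1 fell by 0.93 ± 0.24 (adjusted p = 0.0224). Nnat, a membrane proteolipid best known from the brain, had 8.26 and 10.2 RPKM in P7 DKO libraries, against 7.55 and 8.75 RPKM in P7 Ctrl libraries. At P3, Nnat had 11.2 and 12.8 RPKM in DKO, 12.7 and 17.6 in Jmjd1aKO, 14.9 and 19.05 in Jmjd1bKO, 14.6 and 16.9 in Ctrl and 11.9 and 9.13 in WT libraries. P7 Ctrl lay below every P3 library. Nnat fell by 0.87 ± 0.20 (adjusted p = 0.0141), Peg13 fell by 0.74 ± 0.16 (adjusted p = 0.0113) and Zdbf2 fell by 0.51 ± 0.14 (adjusted p = 0.0257). Endothelial markers summed to 9.497 to 9.63 RPKM in P7 Ctrl, against 18.4 to 30.1 RPKM in P3 Ctrl. Of these, Kdr alone averaged higher, at 3.71 RPKM in P7 Ctrl, against 1.83 RPKM in P3 Ctrl. Sertoli markers summed to 150.4 to 172 RPKM in P7 Ctrl, against 41.9 to 50.5 RPKM in P3 Ctrl. Undifferentiated spermatogonial markers summed to 699 to 706 RPKM in P7 Ctrl, against 501 to 532 RPKM in P3 Ctrl. Zbtb16, Etv5, Nanos2, Plvap and Foxc2 averaged higher in P7 Ctrl, and Gfra1, Id4 and Ret lower. The part of these markers was not tested. Without P3 Ctrl replicate 1 or 2 the number was 5 or 7, and without either P7 Ctrl library 5. The adjusted p was 0.104 leaving out P7 Ctrl replicate 1, 0.0648 leaving out P7 Ctrl replicate 2, 0.0589 leaving out P3 Ctrl replicate 1 and 0.0594 leaving out P3 Ctrl replicate 2 for Nnat and 0.0906 leaving out P7 Ctrl replicate 1, 0.0655 leaving out P7 Ctrl replicate 2 and 0.083 leaving out P3 Ctrl replicate 1 for Peg13. For Plagl1 it was 0.149 leaving out P7 Ctrl replicate 1, 0.0755 leaving out P7 Ctrl replicate 2 and 0.148 leaving out P3 Ctrl replicate 1, and for Zdbf2 0.136 leaving out P7 Ctrl replicate 1, 0.126 leaving out P7 Ctrl replicate 2, 0.145 leaving out P3 Ctrl replicate 1 and 0.0504 leaving out P3 Ctrl replicate 2. Under quantile normalization it was 0.106 for Peg13, 0.0755 for Plagl1 and 0.116 for Zdbf2. Over all tested genes, fewer likewise passed when any P7 Ctrl or P3 Ctrl library was left out.

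Of the 33 members 22 differed between P7 DKO and P3 DKO, 7 higher and 15 lower at P7, where 58.3% of all tested genes did (27.8% higher and 30.5% lower). Among 12 maternally expressed members 8 were lower (H19, Cdkn1c, Phlda2, Slc22a18, Meg3, Rian, Mirg and Grb10) and 1 higher (Ube3a), with a median of -1.56. Among the 20 paternally expressed members, 7 were lower (Igf2, Peg10, Peg13, Dlk1, Dio3, Mest and Plagl1) and 5 higher (Mkrn3, Snrpn, Nespas, Mcts2 and Impact), with a median of -0.31. Gnas was also higher. Undifferentiated spermatogonial markers summed to 75.1 to 202 RPKM in P7 DKO, against 303 to 315 RPKM in P3 DKO. Differentiating ones summed to 616 to 770.2 RPKM in P7 DKO, against 200.3 to 221 RPKM in P3 DKO. Of the latter, Stra8, Dmrtb1 and Sohlh2 averaged higher in P7 DKO. Kit and Sohlh1 averaged lower, at 13.2 and 74.7 RPKM in P7 DKO, against 15.5 and 120 RPKM in P3 DKO. Sertoli markers summed to 112 to 223 RPKM in P7 DKO, against 63.8 to 68.1 RPKM in P3 DKO. Of these, Wt1 averaged lower, at 3.92 RPKM in P7 DKO, against 4.52 RPKM in P3 DKO. Stromal markers summed to 6.01 to 7.13 RPKM in P7 DKO, against 30.3 RPKM in both P3 DKO libraries. Endothelial markers summed to 2.05 to 2.35 RPKM in P7 DKO, against 23.0 to 24.1 RPKM in P3 DKO. Their part was not tested. Rian fell by 3.27 ± 0.28 (adjusted p = 4.33e-05), H19 fell by 3.18 ± 0.31 (adjusted p = 6.10e-05) and Igf2 fell by 2.75 ± 0.29 (adjusted p = 8.38e-05). Grb10 fell by 2.62 ± 0.46 (adjusted p = 0.00105) and Slc22a18 fell by 2.44 ± 0.28 (adjusted p = 0.00013). The rises were led by Snrpn, which rose by 2.12 ± 0.39 (adjusted p = 0.00124), and Gnas, which rose by 2.07 ± 0.73 (adjusted p = 0.0335); Impact rose by 1.39 ± 0.23 (adjusted p = 0.00072). The direction of Peg13, which fell by 0.48 ± 0.16 (adjusted p = 0.0249), turned under quantile normalization, to 0.35 with an adjusted p of 0.121. Leaving out a library left 18 or 19 members. The adjusted p of Gnas was 0.0862 leaving out P7 DKO replicate 1, 0.118 leaving out P7 DKO replicate 2, 0.168 leaving out P3 DKO replicate 1 and 0.0535 leaving out P3 DKO replicate 2. Mest fell by 0.70 ± 0.26 (adjusted p = 0.0413); its adjusted p was 0.345 leaving out P7 DKO replicate 2, 0.0993 leaving out P3 DKO replicate 1 and 0.143 leaving out P3 DKO replicate 2, with a log2 difference of -0.20 without P7 DKO replicate 2. For Ube3a it was 0.124 leaving out P7 DKO replicate 1, 0.0619 leaving out P7 DKO replicate 2 and 0.213 leaving out P3 DKO replicate 1, and for Peg13 0.106 leaving out P7 DKO replicate 1, 0.104 leaving out P3 DKO replicate 1 and 0.0684 leaving out P3 DKO replicate 2. For Cdkn1c it was 0.0524 leaving out P7 DKO replicate 1 and 0.0623 leaving out P3 DKO replicate 2, and for Nespas 0.0511 leaving out P7 DKO replicate 1. Under quantile normalization it was 0.133 for Dio3, 0.0718 for Gnas and 0.0565 for Ube3a. Without a filter on low values it was 0.0753 for Gnas and 0.0812 for Mest. With the DKO groups alone it was 0.142 for Mest and 0.0647 for Ube3a. Without both libraries high in Sertoli transcripts it was 0.0596 for Mest. With median-centring it was 0.0571 for Mest and 0.0546 for Peg13. When any P7 DKO or P3 DKO library was left out, fewer of all tested genes passed too.

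No imprinted gene passed the threshold in Jmjd1aKO or Jmjd1bKO at P3, where few genes of any kind did; each of these groups also lacked 1 copy of the other gene, and Ctrl lacked 1 copy of both. In Jmjd1aKO against Ctrl, limma called 0 of the 33 members, with 3 at an unadjusted p under 0.05 (1484 of all 14772 tested genes), where 0.0338% of all tested genes were called (0.0135% higher and 0.0203% lower). In Jmjd1bKO against Ctrl it called 0, with 0 at an unadjusted p under 0.05 (1.81% of all tested genes), where 0.0203% of all tested genes were called (0.00677% higher and 0.0135% lower). The log2 differences ran from -0.55 to 0.80 in Jmjd1aKO and from -0.58 to 0.76 in Jmjd1bKO. For genes that passed in P3 DKO, the differences in Jmjd1aKO were 0.56 ± 0.16 (adjusted p = 0.339) for Peg10, 0.37 ± 0.17 (adjusted p = 0.518) for Mirg, -0.37 ± 0.31 (adjusted p = 0.702) for H19 and -0.55 ± 0.16 (adjusted p = 0.339) for Peg13; in Jmjd1bKO they were -0.01 ± 0.16 (adjusted p = 1), -0.29 ± 0.17 (adjusted p = 0.965), 0.35 ± 0.31 (adjusted p = 0.965) and -0.10 ± 0.16 (adjusted p = 0.965). The comparisons share the Ctrl libraries. Replicate 2 of both single knockouts held the high Sertoli transcripts. Of the 33 members, 3 were at least 1.5 times higher in replicate 2 than in replicate 1 in both single knockouts, namely Gnas, Sgce and Snrpn, and 3 were at least 1.5 times lower, namely Phlda2, Dio3 and Grb10; among all tested genes 8.20% were higher and 11.4% lower by this measure. The replicate 2 values of Gnas lay above those of every other P3 library. Sgce had 1.91 and 4.92 RPKM in Jmjd1aKO and 0.843 and 4.72 RPKM in Jmjd1bKO, against 1.55 and 1.40 RPKM in Ctrl. Amh, the Sertoli hormone, had 3.33 and 108 RPKM in Jmjd1aKO and 2.30 and 149.6 RPKM in Jmjd1bKO, against 3.09 and 3.84 RPKM in Ctrl. Stromal markers also summed to 69.9 and 69.7 RPKM in replicate 2 of Jmjd1aKO and Jmjd1bKO. Without these libraries each single knockout held 1 library, too few to say whether members changed. The part of Sertoli RNA in these values was not tested.

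**Figure D4:**
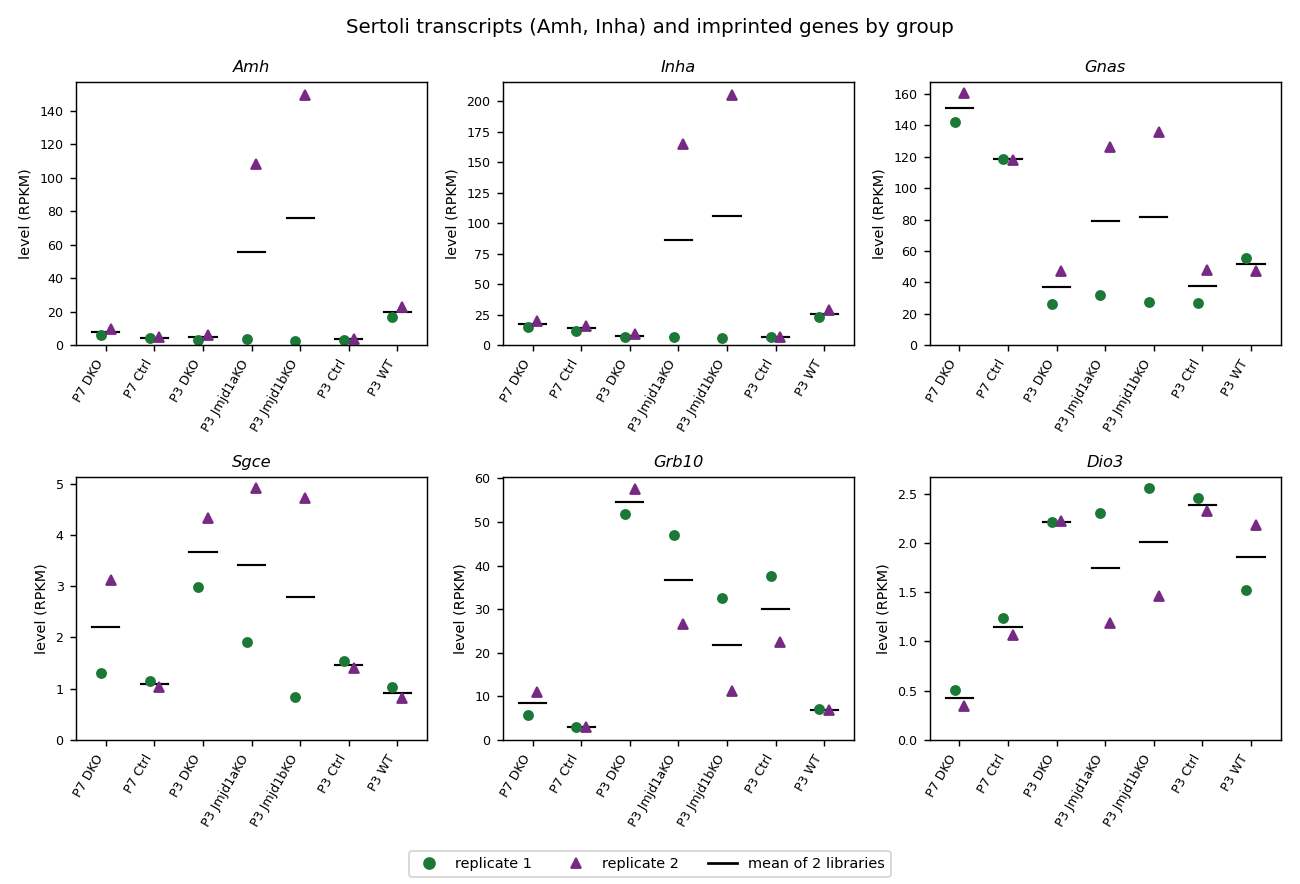
Level in RPKM of the Sertoli transcripts Amh and Inha and of 4 imprinted genes in each library, with a bar for the mean of the 2 libraries of a group. Replicate 2 of Jmjd1aKO and Jmjd1bKO is high in Amh, Inha, Gnas and Sgce and lower than replicate 1 in Grb10 and Dio3.

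P3 Ctrl, which lack 1 copy of each gene and carry Vasa-Cre, were compared with P3 WT. Here limma called 0 of the 33 members, with 10 at an unadjusted p under 0.05 (26.6% of all tested genes), where 0.704% of all tested genes were called (0.406% higher and 0.298% lower). With each library centred on its median, 50 of all tested genes were higher and 55 lower, against 60 and 44 as deposited. The median log2 difference of the members was 0.23, against 0.02 over all tested genes, and both Ctrl libraries lay above both WT libraries in 17 members and below them in 6; over all tested genes they lay above in 5022 and below in 4353 of 14772. The widest differences were at Grb10, with 37.6 and 22.6 RPKM in Ctrl, against 7.04 and 6.94 RPKM in WT, a difference of 1.92 ± 0.46 (adjusted p = 0.0697), and Airn, with 2.40 and 1.17 RPKM in Ctrl, against 0.206 and 0.506 RPKM in WT, a difference of 1.01 ± 0.35 (adjusted p = 0.117). Sertoli markers summed to 41.9 to 50.5 RPKM in Ctrl, against 115 to 170.3 RPKM in WT. Endothelial markers summed to 18.4 to 30.1 RPKM in Ctrl, against 9.15 to 12.9 RPKM in WT. Of the latter, Cldn5 alone averaged lower in Ctrl, at 1.43 RPKM, against 1.66 RPKM in WT. The part of these markers was not tested. Without both libraries high in Sertoli transcripts, 4 members passed as higher in Ctrl (Dlk1, Grb10, Mirg and Plagl1), and 1366 of all 14772 tested genes passed as higher and 833 as lower.

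The 7 members that were tested and passed in none of the 8 comparisons were Ascl2, Igf2r, Sgce, Peg3, Ndn, H13 and Zrsr1. By mean level the first 5 were Ndn, Igf2r, H13, Zrsr1 and Ascl2, with 20.5, 18.95, 11.6, 8.82 and 6.78 RPKM. Zrsr1, a paternally expressed splicing factor relative, had 8.16 and 7.41 RPKM in P7 DKO libraries, against 9.12 and 10.04 RPKM in P7 Ctrl libraries and group means from 7.79 to 9.65 RPKM. Group means ran from 0.920 to 3.66 RPKM for Sgce, from 4.68 to 9.13 RPKM for Peg3 and from 9.68 to 13.2 RPKM for H13. The 6 members that were not tested were Kcnq1ot1, with a highest value of 0.874 RPKM, Kcnk9, Usp29, Zim1, Magel2 and Rtl1. Kcnq1ot1 and Magel2 had their highest values in P7 DKO, and Kcnk9 and Usp29 theirs in P3 DKO.

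A longer list of 53 other imprinted genes, 52 of them in the files and 41 tested, was read the same way. In P7 DKO 3 rose and 4 fell, 17.1% of the 41, against 33.5% of all tested genes: Ago2, of the RNA silencing machinery, rose by 1.88 ± 0.26 (adjusted p = 0.000705), and Snurf rose as above, while Inpp5f, a phosphoinositide phosphatase, fell by 1.30 ± 0.20 (adjusted p = 0.000998), and Begain fell by 1.13 ± 0.27 (adjusted p = 0.00955). Igf2os, antisense to Igf2 and sharing 98 exonic bases with it, fell by 0.84 ± 0.22 (adjusted p = 0.0157), and Smoc1, a secreted matrix protein, rose by 0.77 ± 0.20 (adjusted p = 0.014). In P3 DKO 3 rose and 0 fell, 7.32% of the 41, against 4.47% of all tested genes: Asb4, of the ubiquitin ligase system, rose by 1.12 ± 0.18 (adjusted p = 0.0196), Pon3, a paraoxonase that neighbours Peg10 and Asb4, rose by 0.92 ± 0.19 (adjusted p = 0.0348), and the phosphodiesterase Pde10a rose by 0.65 ± 0.14 (adjusted p = 0.0355). The medians were 0.08 at P7 and 0.19 at P3, against 0.02 and 0.01 over all tested genes. Between P7 Ctrl and P3 Ctrl 1 of the 41 rose and 11 fell (29.3%, against 23.3% of all tested genes); among the falls, Rasgrf1, an exchange factor of Ras, fell by 2.06 ± 0.60 (adjusted p = 0.0364), and the amino acid transporter Slc38a4 fell by 1.99 ± 0.52 (adjusted p = 0.0243). Between P7 DKO and P3 DKO 7 rose and 22 fell (70.7%, against 58.3% of all tested genes), and Slc38a4 fell by 3.71 ± 0.52 (adjusted p = 0.000313). The DKO change differed between the ages for 2 in each direction (9.76%, against 22.9% of all tested genes), with Ago2 at 1.86 ± 0.37 (adjusted p = 0.00778) and Asb4 at -1.20 ± 0.26 (adjusted p = 0.0101). None passed in limma in Jmjd1aKO, in Jmjd1bKO or between Ctrl and WT, with 6, 2 and 12 of the 41 at an unadjusted p under 0.05. Over all tested genes the shares with such a p were 10%, 1.81% and 26.6%, and 0.0338%, 0.0203% and 0.704% were called.

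Of 22 genes that write, keep or erase imprints, 21 were tested. In P7 DKO 6 rose and 2 fell, 38.1% of the 21 and near the 33.5% of all tested genes. Tet3, which oxidizes methylated cytosine, rose by 1.31 ± 0.18 (adjusted p = 0.00056), Zfp445, a zinc finger protein that keeps imprints, rose by 0.59 ± 0.11 (adjusted p = 0.00277), and Ctcf, the insulator protein of the H19 control region, rose by 0.59 ± 0.13 (adjusted p = 0.00594). Hells, a chromatin remodeller needed for DNA methylation, rose by 0.47 ± 0.15 (adjusted p = 0.0326), while Kdm1b, a lysine demethylase needed for imprints in oocytes, fell by 1.07 ± 0.16 (adjusted p = 0.00101), and Uhrf1, which brings the maintenance methylase to DNA, fell by 0.50 ± 0.17 (adjusted p = 0.0462). In P3 DKO 2 rose and 2 fell, 4 of the 21, against 4.47% of all tested genes. Dppa3, which protects methylation in the early embryo, rose by 1.43 ± 0.31 (adjusted p = 0.0372), and Ehmt2, an H3K9 methylase, rose by 0.61 ± 0.13 (adjusted p = 0.0327); Uhrf1 fell by 0.80 ± 0.17 (adjusted p = 0.0358) and the de novo methylase Dnmt3b fell by 0.54 ± 0.10 (adjusted p = 0.0256). Dppa3 had 0 and 0.541 RPKM in P7 DKO libraries, against 0.0682 and 0.588 RPKM in P7 Ctrl libraries. At P3, Dppa3 had 4.61 and 6.10 RPKM in DKO, 3.93 and 4.13 in Jmjd1aKO, 1.51 and 0.445 in Jmjd1bKO, 1.06 and 1.66 in Ctrl and 0.759 and 0.886 in WT libraries. Its P3 DKO libraries lay above P3 Ctrl. Between P7 Ctrl and P3 Ctrl 1 rose and 4 fell, 23.8% of the 21 and near the 23.3% of all tested genes. Dnmt3l, the cofactor that male germ cells use to write imprints, had 0.465 and 0 RPKM in P7 DKO libraries, against 0.412 and 0.570 RPKM in P7 Ctrl libraries. At P3, Dnmt3l had 34.3 and 37.1 RPKM in DKO, 35.8 and 15.1 in Jmjd1aKO, 16.6 and 4.83 in Jmjd1bKO, 17.97 and 13.9 in Ctrl and 4.65 and 2.74 in WT libraries. Both P7 groups lay below every P3 library. Dnmt3l fell by 3.50 ± 0.51 (adjusted p = 0.00329) in P7 Ctrl and fell by 4.92 ± 0.51 (adjusted p = 7.77e-05) between P7 DKO and P3 DKO. Zfp57 itself fell by 1.104 ± 0.32 (adjusted p = 0.0367) in P7 Ctrl. Between P7 DKO and P3 DKO 9 rose and 8 fell (81.0%, against 58.3% of all tested genes), and the DKO change differed between the ages for 7 (33.3%, against 22.9%), of which 4 were positive. None passed in Jmjd1aKO, Jmjd1bKO or Ctrl against WT in limma, with 3, 1 and 10 of the 21 at an unadjusted p under 0.05. Of all tested genes, 10%, 1.81% and 26.6% had such a p, and 0.0338%, 0.0203% and 0.704% were called.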

How the data were processed

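The RPKM values are those that the authors deposited, 1 table per library, per the file headers; the submitters' processing notes name TopHat2 2.1.1, Cufflinks 2.1.1 and mm10, with no role or order given. The annotation and any use of strand in counting are not given in the sources used here. RNA was taken with a kit that yields DNA and RNA from few cells, and libraries were made with a stranded mRNA kit, per the labels' protocols.

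Values were taken as log2(RPKM + 1), and a gene was kept if 2 or more of the 14 libraries held it at 1 RPKM or above (14772 of 24340). All 14 libraries were fitted in limma 3.58.1 (R 4.3.3) with 1 coefficient per group, 7 residual degrees of freedom and a trended variance prior; tables were made with Python 3.11.15. The Benjamini-Hochberg adjustment was made separately in the 8 comparisons, over all kept genes and on two-sided p-values, with a threshold of 0.05. The procedure was run on simulated data with known changes, in which each gene had the same spread in every group. The real groups differed in spread, so that run did not show how the procedure performs on them. The median SE was 0.185, and 0.262 for the difference between ages.

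RPKM tables give no depth. It was estimated from low values, which for genes with 1 transcript step by the worth of 1 fragment; whole numbers of fragments, to a tolerance of 0.2, came out for 61.5% to 69.2% of values, against 40% by chance, so the depths are rough.

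The members and lists were chosen with earlier results of these data known. Every member is given: those that passed in a comparison with the value in every library, the others by their group means or highest value, the 5 highest by name. From the longer lists, the called genes with the largest changes were named. Marker genes of 9 cell types were summed as RPKM. Alternatives were a pseudocount of 0.1, no filter on low values, median-centring, quantile normalization, a fit of the compared groups only, a replicate block, each library left out, and both libraries high in Sertoli transcripts left out. The promoter windows come from RefSeq, build GRCm38.p6.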

Additional observations from a re-analysis of the deposited data

Results flagged for a closer look

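For 12 imprinted genes the log2 change in DKO at P7 minus that at P3 passed in limma, that is, the change differed between the ages, and these are given as values. The difference was -3.39 for H19, -1.99 for Igf2, -1.42 for Cdkn1c, -1.61 for Slc22a18, -0.84 for Peg10, -1.42 for Meg3, -3.03 for Rian and -1.30 for Mirg. It was 1.63 for Airn, 1.93 for Snrpn, 0.97 for Mcts2 and 1.17 for Impact. With 2 libraries a group, no group was large enough for a check of single libraries that stand far from their group.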

How the results depend on the processing

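The number of imprinted genes called in P3 DKO against P3 Ctrl, 4, became 0 when the compared groups alone were fitted, 2 with a pseudocount of 0.1 and 7 without both libraries high in Sertoli transcripts. Between P3 Ctrl and P3 WT, 0 became 1 with a pseudocount of 0.1 (Mirg) and 4 without the libraries high in Sertoli transcripts. Between P7 Ctrl and P3 Ctrl, 9 became 16 when these groups alone were fitted. Over all tested genes, 1860 were then higher and 2571 lower, against 1468 and 1973. For P3 DKO against P3 Ctrl the groups alone gave 11 higher and 6 lower, against 322 and 339. A pseudocount of 0.1 gave 125 and 240 there, and 119 and 64 between P3 Ctrl and P3 WT, against 60 and 44. Without the libraries high in Sertoli transcripts more of all tested genes passed in both of these comparisons. The causes were not tested. Leaving out each library in turn gave 8 to 12 in P7 DKO against P7 Ctrl, 0 to 2 in P3 DKO against P3 Ctrl, 5 to 7 in P7 Ctrl against P3 Ctrl, 18 to 19 in P7 DKO against P3 DKO, 4 to 10 for the difference between the ages and 0 in the other comparisons; where this left 1 library in a group, that library is assumed to vary like the other groups. In each comparison that called a member, fewer of all tested genes also passed whenever a library was left out. The log2 change of Peg13 between P7 DKO and P3 DKO reversed under quantile normalization, to 0.35. Of 62 member changes called, 41 were called under every alternative other than leaving out a library, and 32 under all of them.

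The labels do not say that replicate numbers pair the samples, and the numbers were not treated as pairs: the correlation of deviations between same-numbered libraries ran from -0.13 to 0.581 over 21 pairs of groups and passed 0.1 in 7, of which 5 were among the 6 pairs of P3 groups with Vasa-Cre. With the replicate number as a block, 2 genes passed between P3 Ctrl and P3 WT (Grb10 and Mirg), against 0 without it. In P7 DKO against P7 Ctrl 16 passed, in P3 DKO against P3 Ctrl 5, in P7 Ctrl against P3 Ctrl 13, in P7 DKO against P3 DKO 22, and 12 for the difference between the ages. Over all tested genes, 2936 were higher and 2718 lower in P7 DKO with the block, against 2569 and 2385 without it. In P3 DKO these counts were 546 and 594, against 322 and 339. In P7 Ctrl against P3 Ctrl they were 2003 and 2540, against 1468 and 1973. Between P3 Ctrl and P3 WT they were 464 and 312, against 60 and 44. They also rose for P7 DKO against P3 DKO and for the difference between the ages. None of the 62 calls was lost.

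Genes near 1 RPKM, such as Airn, Peg12, Peg13, Mirg and Slc22a18, rest on few fragments and carry more counting error, and the estimated depth was 13.5 to 15.0 M fragments in P3 WT.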
